A study of Mus musculus with 22 samples.

Results

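GFP-positive cells were compared with GFP-negative cells of the same reporter clone, over 4 clones of a kidney collecting duct line. The comparison took every library of the 4 clones, 16 of the 22 RNA-seq libraries in the series, 8 from GFP-negative and 8 from GFP-positive cells. The other 6 libraries came from unsorted wild-type cells and were not used. The series title names variation of aquaporin-2 between cells, read with a GFP reporter, as its subject. All cells were mpkCCDc11 clone 38, an immortalised line from mouse cortical collecting duct, grown on permeable supports and then kept in a simple medium with dexamethasone, selenium and transferrin. The reporter lines are C1, C11, C43 and C50, each a single clone. All 8 clone and fraction groups received dDAVP, the synthetic vasopressin analogue desmopressin, which acts on the V2 receptor. All 16 libraries thus share the reporter, dDAVP and dexamethasone. The labels give 0.1 or 1 nM dDAVP and 24 or 48 hours for the series as a whole, and which dose or time each library had was not known. The promoter that drives GFP is not given in the labels. Each clone gave 2 libraries per fraction, which the labels number as replicates without saying whether they were separate cultures or sorts. The p-values below therefore rest on the spread between these libraries, which may be technical. Where clone and fraction are the only terms, that spread also takes in how far the difference varied between clones.

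Principal cells of the collecting duct take up water from the urine through aquaporin-2 (gene Aqp2). Vasopressin binds the V2 receptor (Avpr2) on their basolateral side, the receptor acts through the stimulatory G protein and adenylyl cyclase, and cyclic AMP then activates protein kinase A. Protein kinase A moves aquaporin-2 to the apical membrane within minutes, and over hours Aqp2 transcription rises. The same cells reabsorb sodium through the epithelial sodium channel and the basolateral sodium pump, under the control of aldosterone and glucocorticoids. Principal cells can stop dividing as they differentiate, and in injured tubules epithelial cells regain division and matrix genes.

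Expression is the authors' TPM, the abundance of a transcript scaled to transcript length and to the same total in each library. TPM keep no read depth, so the sequencing depth of the libraries is unknown here. Between 12293 and 14341 genes reached a TPM of 1 in GFP-negative libraries and between 12529 and 13764 in GFP-positive libraries. Across genes, Pearson's r between the 2 libraries of a clone and fraction was 0.944 to 0.981, and 0 pairs of libraries held identical values. GFP-negative replicate 1 of clone C50 stood apart, with 8.56% of its TPM in cytosolic ribosomal protein genes against 4.35% to 5.49% in the other 15 libraries. The share of TPM in the 10 most abundant genes also moved with the fraction, from 5.93% to 7.84% in GFP-negative and from 7.22% to 9.5% in GFP-positive libraries. Of 12 principal cell markers, 10 had a mean TPM of at least 1, and their summed level was 656 to 3061 TPM in GFP-negative and 3230 to 10830 TPM in GFP-positive libraries. Aqp2 was a large part of it, with medians of 747 and 3759 TPM against 1477 and 5561 TPM for the sum. The medians of Aqp3 and Aqp4 were lower in GFP-positive libraries and those of the other markers higher. Scnn1b, a subunit of the epithelial sodium channel, and the transcription factor Elf5 were below 1 TPM in all 16 libraries, so these defining markers of the cell type were nearly absent. The 7 fibroblast markers summed to at most 1.69 TPM in any GFP-negative and 1.02 TPM in any GFP-positive library, and the 4 endothelial markers to at most 1.57 and 1.14 TPM. Of 6 immune markers only Csf1r had a mean of at least 1 TPM. Of 9 intercalated cell markers 3 were expressed, with summed levels of 22.1 to 75.3 TPM in GFP-negative and 51.3 to 118.6 TPM in GFP-positive libraries, and Foxi1, the factor that defines that cell type, was below 1 TPM throughout. Of the 8 tested genes on the longer intercalated cell list 3 (37.5%) rose, Aqp6 (0.53), Car2 (0.66) and Atp6v1b1 (0.81), and 0 fell, against 12.1% and 23.2% of all genes. The call of Aqp6 was lost in 13 of 30 alternatives. The proximal tubule, loop of Henle and distal tubule, immune and endothelial lists had 2 tested genes each, among which Lrp2 (0.56) and Vwf (0.84) rose and Csf1r (-0.57) fell. The call of Lrp2 was lost with clone means as replicates and without clone C1. The part of other cell types in the results below was not tested. In such bulk libraries, fewer cells of a type and less RNA per cell cannot be told apart.

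On the deposited scale more genes were called lower than higher in GFP-positive cells, a balance that changed with the scaling. Genes with a mean of at least 1 TPM were tested on log2(TPM + 1) with limma, with the clone as a covariate, and a gene is called when its Benjamini-Hochberg adjusted p is under 0.05. Differences below are GFP-positive minus GFP-negative on that log2 scale, on which low-TPM genes appear to change less than they do. Of 13113 genes tested, 4626 (35.3%) were called, 1582 (12.1%) higher and 3044 (23.2%) lower. With the mean of each clone and fraction as 1 replicate 2406 were called, 778 higher and 1628 lower, and in 22 of 41 gene lists the count of called members was lower by more than 1.5 times. The balance of directions depended on scaling: rises made up 34.2% of the calls on deposited TPM, 50.9% (2382 higher, 2294 lower) with median-ratio scaling and 50.5% (2560 higher, 2513 lower) with quantile normalization. The median difference over all genes was -0.06 as deposited, 0.009 after median-ratio scaling and 0.015 after quantile normalization.

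Changes shared by all 8 pairs, called and with the same sign in each pair of same-numbered libraries of a clone, were found in 3009 genes (22.9%), 1094 higher (8.34%) and 1915 lower (14.6%). Within each clone both GFP-positive libraries lay beyond both GFP-negative ones for 2469 called genes (18.8%), 6.67% higher and 12.2% lower. Of the 1617 called genes that were not shared, 1360 had the sign in 7 pairs, and in 554 of those the only pair that differed was pair 1 of clone C50, which holds the library with the high ribosomal protein share. No other pair was the only one to differ in more than 189 genes. Without GFP-negative replicate 1 of C50 6043 genes were called, 1760 higher and 4283 lower, and 4561 of the 4626 were among them. Over the 7 pairs then left, an easier rule than 8, 4281 called genes had the same sign in every pair, and 2997 of them were among the 3009. Without the whole of clone C50 5254 genes were called, 1429 higher and 3825 lower. The balance of the shared changes turned with the scaling. With median-ratio scaling 2964 genes were shared, 1552 higher and 1412 lower, and 2195 of them were among the 3009. After quantile normalization 3199 were shared, 1652 higher and 1547 lower, and 2300 of them were among the 3009. The number of genes with a TPM above 0 varied from 17177 to 30855 over GFP-negative and from 18510 to 29973 over GFP-positive libraries, and with that number as a covariate 4862 genes were called.

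The shared rises were mostly modest, with a median size of 0.59 on the log2 scale, and so were the shared falls, with a median of 0.53. A shared difference of at least 1 was reached by 117 genes that rose (0.892%) and 374 that fell (2.85%), and one of at least 2 by 2 that rose (0.0153%), GFP and Aqp2, and 53 that fell (0.404%). The 8 libraries of one fraction did not overlap the 8 of the other, whatever the clone, for 165 higher genes (1.26%) and 619 lower genes (4.72%). Shared rises made up 13.8% to 17.5% of all TPM in GFP-negative libraries and 22.4% to 26.6% in GFP-positive libraries. Shared falls made up 18.8% to 23.1% and 13% to 15.3%. The median of the shared rises was 0.47, 0.41, 0.53 and 0.88 in clones C1, C11, C43 and C50, and that of the shared falls -0.42, -0.45, -0.58 and -0.65. Over all genes tested the median was -0.06, -0.12, -0.16 and 0.09 in these clones, and 0.26 in pair 1 of C50. Values of C50 thus sit on a shift of the whole library.

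**Figure D1:**
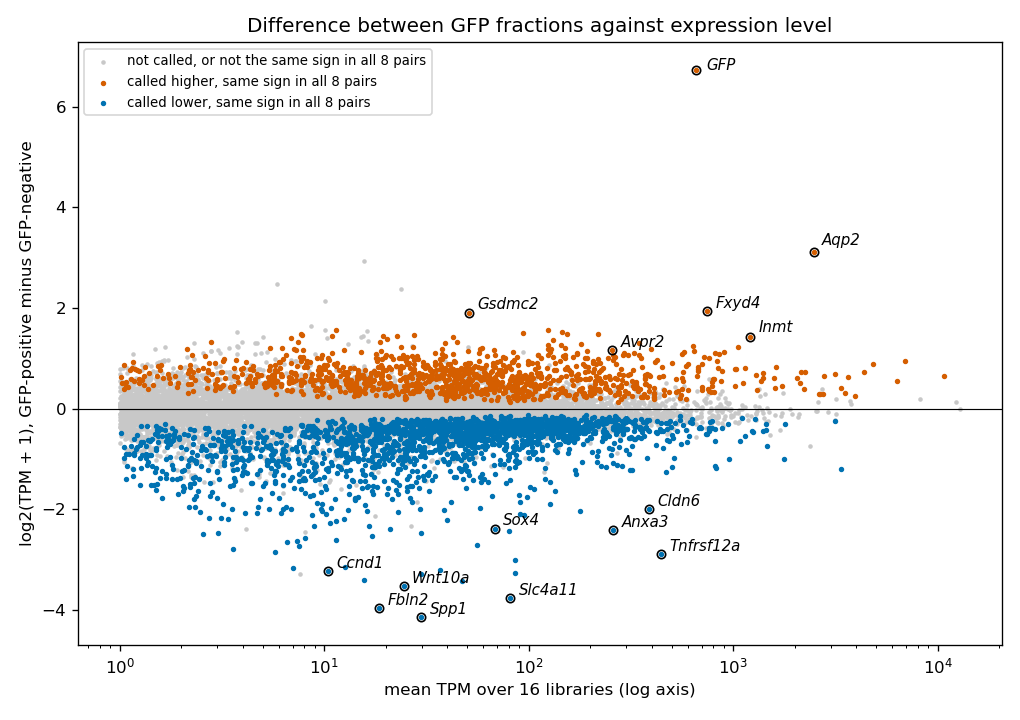
Difference between fractions (log2(TPM + 1), GFP-positive minus GFP-negative, vertical axis) against the mean TPM of each of the 13113 genes tested (log horizontal axis). Orange and blue points are the 1094 shared rises and 1915 shared falls, grey points all other genes; GFP (6.73) and Aqp2 (3.11) stand above every other shared rise, and Spp1 (-4.14) is the largest fall.

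GFP, the quantity the cells were sorted on, is given as a check of the labels only. It was 5.31 to 17.6 TPM (median 11.2) in the 8 GFP-negative libraries and 1065 to 1567 TPM (median 1292) in the 8 GFP-positive libraries, and the fractions did not overlap.

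Aqp2 (ENSMUSG00000023013) was 66.5 to 1679.8 TPM (median 747) in GFP-negative and 2008 to 7254 TPM (median 3759) in GFP-positive libraries. Every GFP-positive library lay above every GFP-negative library, although the highest GFP-negative libraries, those of C43, came near the GFP-positive libraries of C1. The difference was 3.11 with a standard error of 0.318 (n = 8 and 8, limma adjusted p 4.74e-06), and permuting fractions within clones (exact, two-sided) gave a p of 0.00154, the smallest that 1296 arrangements allow. In clones C1, C11, C43 and C50 it was 4.84, 3.59, 2.10 and 1.90, and limma's test for a clone-dependent size gave an adjusted p of 2.15e-06. The clones thus differed in size, not in direction.

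The 250 bases before the Aqp2 start, chr15:99578806-99579055 on the plus strand of GRCm38.p6 (RefSeq), are shown because Aqp2 is the transcript the reporter study is about. Capitals mark the matches of 2 searched motifs, on either strand: the core of the short cAMP response element (TGACG, here on the opposite strand) 211 bases before the start, and the GATA motif AGATAA (here on the opposite strand) 202 bases before it. Of 32851 RefSeq promoter windows of the same length, 17.8% hold the first motif and 9.99% the second, so each alone is common. A match is a string of letters, not a binding site.
Aqp2 promoter: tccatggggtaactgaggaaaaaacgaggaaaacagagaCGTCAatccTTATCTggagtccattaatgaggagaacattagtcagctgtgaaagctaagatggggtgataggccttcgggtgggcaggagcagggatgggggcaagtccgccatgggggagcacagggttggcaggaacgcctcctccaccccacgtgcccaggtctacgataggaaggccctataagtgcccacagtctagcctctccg

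The transport and hormone genes of principal cells were higher in GFP-positive cells. Of 24 tested members of this list 18 rose, all 18 in all 8 pairs, and 1 fell (median 0.74, against -0.06 over all genes). The share called higher was 75%, against 12.1% of all genes tested. The list was chosen with earlier results of these data known. Without GFP-negative replicate 1 of C50 it held 19 higher and 2 lower members, and with median-ratio scaling 20 higher and 1 lower.

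Avpr2, the V2 receptor itself, was 137 to 179 TPM (median 155) in GFP-negative and 324 to 385 TPM (median 349) in GFP-positive libraries. The 8 libraries of each fraction lay close together, the fractions did not overlap, and the difference of 1.16 (standard error 0.0566, limma adjusted p 5.03e-09) was nearly the same in clones C1, C11, C43 and C50 (1.24, 0.95, 1.12 and 1.33). Scnn1g, the gamma subunit of the epithelial sodium channel, was 7.42 to 15.9 TPM (median 11.8) and 21 to 31.6 TPM (median 26.5), again without overlap (1.14, limma adjusted p 8.27e-06). The alpha subunit Scnn1a, at 42.2 to 220.1 TPM (median 149) and 154 to 244 TPM (median 175), did not pass the test (0.46, limma adjusted p 0.0744). Sgk1, the kinase that aldosterone and glucocorticoids induce to keep the channel at the surface, was 185 to 512 TPM (median 366) and 385 to 1064 TPM (median 790.5) and rose by 1.08 with overlapping ranges.

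Of the same list Atp1b1 (0.65, adjusted p 3.29e-05), the beta subunit of the sodium pump, rose. Fxyd4, a regulator of the pump, also called CHIF, was 107 to 836 TPM (median 171) in GFP-negative and 439 to 2624 TPM (median 850.1) in GFP-positive libraries, the largest rise after GFP and Aqp2 under the rule used (1.94, standard error 0.145, limma adjusted p 2.29e-07). The ranges overlapped, since the GFP-negative libraries of C43 lay above the GFP-positive libraries of C1. Fxyd2, the gamma subunit of the pump, rose by 1.19. The potassium channel subunit Kcnq1 (0.89), the proteases Tmprss2 (0.82) and Prss8 (0.25), the ubiquitin ligase Nedd4l (0.67) that removes the sodium channel from the surface, the mineralocorticoid receptor Nr3c2 (0.76) and Hsd11b2 (0.71), which protects that receptor from glucocorticoids, also rose. Aqp3, a basolateral water channel of principal cells, was 0.15 to 4.13 TPM (median 1.95) in GFP-negative and 0.26 to 3.01 TPM (median 0.575) in GFP-positive libraries and was the member that fell (-0.64, limma adjusted p 0.0195, lower in 7 of 8 pairs). Neither without clone C1 nor with clone means as replicates was any member of the list called lower. Aqp4, the other basolateral water channel, was 0 to 2.92 TPM (median 0.27) and 0 to 6.46 TPM (median 0.085) and did not pass the test.

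**Figure D2:**
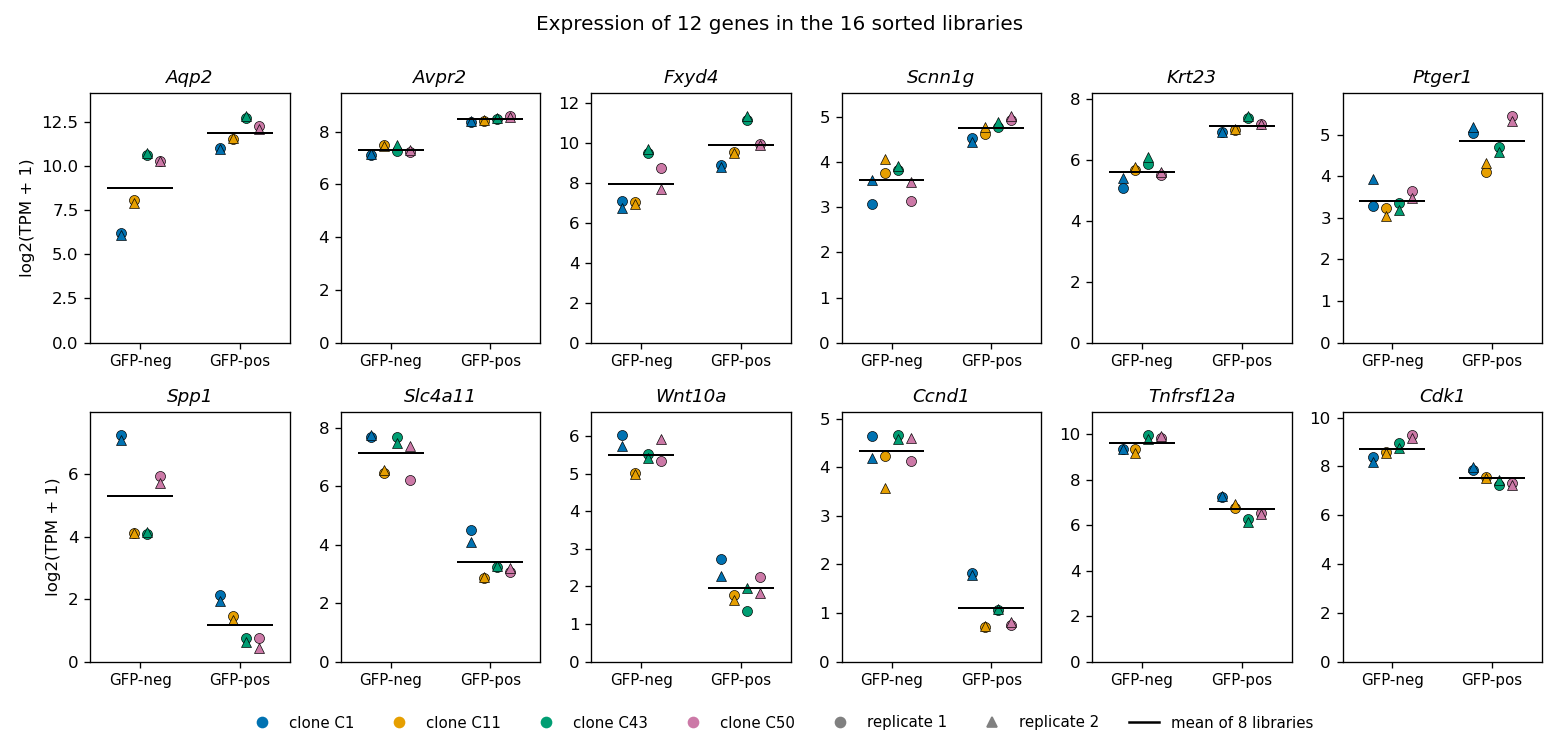
log2(TPM + 1) of 12 genes (vertical axes, each from 0) in the 8 GFP-negative and 8 GFP-positive libraries; colours are clones, circles and triangles replicates 1 and 2, black lines the means of 8 libraries. The upper row holds genes that rose and the lower row genes that fell; of these 12, Fxyd4 is the only gene whose 2 fractions overlap.

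The rule named the 25 largest shared rises with a mean of at least 5 TPM beside GFP and Aqp2, between 1.28 and 1.94. The fractions did not overlap for 8 of them, against 1.26% of all genes that were higher without overlap; the genes were chosen for their size, so nothing is read from that count. Spink8, a serine protease inhibitor of the Kazal type, was 30.2 to 97 TPM (median 68.1) in GFP-negative and 168 to 200.1 TPM (median 182) in GFP-positive libraries. B3gnt7, a glycosyltransferase that extends keratan sulfate chains, was 55.1 to 89 TPM (median 73) and 172 to 291 TPM (median 193), and the keratin Krt23 was 32.4 to 66.4 TPM (median 48.4) and 119 to 172 TPM (median 135). The fractions did not overlap for Spink8, B3gnt7 or Krt23 (limma adjusted p 1.86e-06, 7.13e-08 and 3.52e-09), and the Krt23 difference was 1.68, 1.30, 1.44 and 1.62 in clones C1, C11, C43 and C50.

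The gasdermins Gsdmc2, Gsdmc3 and Gsdmc4, which belong to a family of pore-forming proteins, rose by 1.91, 1.57 and 1.44. They are close copies of each other, so the split of reads among them is uncertain. Their levels followed the clone as much as the fraction: Gsdmc2 was 0.54 to 63.8 TPM (median 14.7) and 4.40 to 216 TPM (median 57.2), lowest in C1 and highest in C43 in both fractions. The mucin Muc1 (1.12, adjusted p 3.82e-06) was 271 to 963 TPM (median 559.5) and 986 to 1527 TPM (median 1168) with no overlap, and Muc4 and Muc20 rose by 1.32 and 1.30. Complement C3 was 37.5 to 106 TPM (median 74.9) and 109 to 254 TPM (median 186), with no overlap. In the whole list of gasdermins and epithelial defence genes 13 of 20 (65%) rose and 2 (10%) fell, against 12.1% and 23.2% of all genes, with a median of 0.64. The members that fell were Lcn2 (-0.99, adjusted p 0.000219), the iron-binding protein lipocalin 2, and Spint1 (-0.28, adjusted p 0.00828), a protease inhibitor.

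Ptger1, a receptor for prostaglandin E2, was 7.22 to 14.2 TPM (median 8.96) in GFP-negative and 16.1 to 42.6 TPM (median 28.5) in GFP-positive libraries (1.44, limma adjusted p 4.26e-07), with no overlap. Ptges, which makes prostaglandin E2, was 3.49 to 23.4 TPM (median 10.3) and 7.05 to 49.7 TPM (median 30.7) and rose by 1.39 (limma adjusted p 1.14e-05). Prostaglandin E2 is a local hormone that opposes vasopressin in the collecting duct. The methyltransferase Inmt (1.42), the glutathione transferases Gstt1 (1.36) and Gstt2 (1.26) and the sugar reductase Dcxr (1.01) rose with overlapping ranges. Gstt2 and Dcxr were among the 8 rises of at least 1 that varied least between clones: Gstt2 was 1.26, 1.31, 1.16 and 1.32 in the 4 clones in their order above. Other genes of the 25 were Nhlrc4 (1.48), Fcgbp (1.48), Cyfip2 (1.47), Pbld1 (1.44), Tldc2 (1.40), Tspan13 (1.33), Arhgef3 (1.33), Rasd1 (1.31), a Ras-like protein induced by dexamethasone, and Rnf186 (1.28). Tmem238l (1.23) was named for its even rise in the 4 clones.

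Of 26 tested genes induced by cyclic AMP 13 (50%) rose and 4 (15.4%) fell, with a median of 0.52, against 12.1% higher and 23.2% lower over all genes. Cited1, a transcriptional coactivator, was 3.04 to 26.2 TPM (median 14.6) in GFP-negative and 9.67 to 75.4 TPM (median 37.9) in GFP-positive libraries and rose by 1.47 (limma adjusted p 4.09e-08), with overlapping ranges and an even size in the 4 clones (1.43, 1.38, 1.36 and 1.70). The nuclear receptors Nr4a1 (0.73), Nr4a2 (0.92) and Nr4a3 (0.73), the clock genes Per1 (0.79) and Per2 (0.77), the transcription factor Crem (0.76), the phosphodiesterases Pde4b (0.81) and Pde4d (0.71), Rgs2 (0.53), Tgm2 (1.10) and Fos (0.64) rose as well. The 4 that fell were Id1 (-1.91, adjusted p 3.62e-07), Id2 (-0.49, adjusted p 7.31e-05), Gem (-1.31, adjusted p 1.57e-06) and Areg (-0.74, adjusted p 0.00399). Id1 and Id2 inhibit basic helix-loop-helix factors, Gem is a small GTPase and Areg an EGF receptor ligand.

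Of 38 tested members of the signalling machinery upstream of these genes 12 (31.6%) rose and 7 (18.4%) fell, against 12.1% and 23.2% of all genes, with a median of 0.05. The counts were 7 and 5 with clone means as replicates. With median-ratio scaling 16 rose and 5 fell, and without GFP-negative replicate 1 of C50 13 rose and 12 fell. Beside Avpr2, Ptger1 and the genes above, the cyclase Adcy6 (0.46), the cyclic AMP sensor Rapgef3 (0.78), the anchoring protein Akap12 (0.69) and the phosphodiesterases Pde4a (0.88) and Pde4c (0.54) rose. Those that fell were the G protein alpha subunit Gnas (-0.17), the arrestin Arrb2 (-0.91), the receptor kinase Grk6 (-0.50), the protein kinase A inhibitors Pkia (-0.64) and Pkig (-0.57), Akap7 (-0.48) and Atf1 (-0.42). Arrb2 was 19.1 to 29.6 TPM (median 24.6) and 8.57 to 19.7 TPM (median 11.6) and fell in 8 of 8 pairs (limma adjusted p 0.000121), while the fall of Gnas was small against its level of 659.6 to 802 TPM (median 711) in GFP-negative libraries. The calls of Gnas and Pkia were lost in 19 and 11 of 30 alternatives, for Gnas with both rescalings among them.

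Of 32 tested immediate early genes 13 (40.6%) rose and 5 (15.6%) fell, against 12.1% and 23.2% of all genes (median 0.27). With clone means as replicates 7 rose and 4 fell, and the number higher was 20 with median-ratio scaling and 11 with quantile normalization. Zfp36, which destabilises mRNAs, was 356 to 633 TPM (median 474) and 645 to 1187 TPM (median 866), and Btg2, an inhibitor of cell division, was 1233 to 2234 TPM (median 1581) and 2337 to 3573 TPM (median 2649). Both rose without overlap (limma adjusted p 8.16e-05 and 1.1e-05). Klf2 (0.88), Egr2 (0.44), Egr3 (0.56), Jun (0.51) and Arc (0.60) rose with overlapping ranges. Dusp2, a phosphatase of ERK, was 12.9 to 56.7 TPM (median 23) and 2.68 to 6.13 TPM (median 4.21) and fell by 2.33 on the log2 scale (limma adjusted p 3.95e-08). Fosl1 (-0.76), Atf3 (-0.64), Ier5 (-0.28) and Ccn2 (-0.75) fell too. The AP-1 members Fos and Fosl1 thus moved in opposite directions. Fos was 1515 to 3399.8 TPM (median 1842) in GFP-negative and 2500.1 to 4072 TPM (median 3425) in GFP-positive libraries, and Fosl1 was 67.5 to 239 TPM (median 87.3) and 42.2 to 109.6 TPM (median 56.4).

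Among 19 transcription factors of the collecting duct 11 (57.9%) rose and 2 (10.5%) fell, against 12.1% and 23.2% of all genes (median 0.24). Elf3, an ETS factor of epithelia, was 656 to 999 TPM (median 835) in GFP-negative and 1052 to 1860.5 TPM (median 1538) in GFP-positive libraries, without overlap (0.81, limma adjusted p 4.3e-06). Gata3, which collecting duct development requires, was 97.2 to 180.3 TPM (median 147) and 155 to 335 TPM (median 291) (0.91, limma adjusted p 1.68e-05), and Ehf, another ETS factor, rose by 0.48. Tfcp2l1 (0.71), Pax8 (0.24), Emx2 (0.35), Hoxb7 (0.29), Hoxd8 (0.24), Tfap2a (0.41) and Grhl1 (0.39) also rose. With clone means as the replicates 4 members were called higher and 2 lower. Irx2 was 6.73 to 10.7 TPM (median 7.89) and 1.69 to 4.91 TPM (median 2.69) and fell by 1.31 on the log2 scale, and Hoxa10 fell by 0.45. Of the AP-1, C/EBP, KLF, SOX and other inducible factors 16 of 90 (17.8%) rose and 24 (26.7%) fell, shares near those of all genes, and with median-ratio scaling 26 rose and 25 fell. Cebpd, a C/EBP factor induced by glucocorticoids and cyclic AMP, was 8.64 to 41.2 TPM (median 22.5) and 26.3 to 91.3 TPM (median 64.8) (1.42, limma adjusted p 5.12e-08). Sox4 was 102 to 143 TPM (median 110) and 13.7 to 28.8 TPM (median 22), without overlap, and fell by 2.38 on the log2 scale (limma adjusted p 8.86e-10). The ETS factor Etv4 was 3.59 to 7.77 TPM (median 4.71) and 0 to 0.19 TPM (median 0.04) and fell by 2.48 on the log2 scale, and Sox9 (-1.14), Sox11 (-1.18), Runx1 (-1.23) and Foxq1 (-0.77) were lower as well. Etv4 met the filter on the mean only through GFP-negative libraries, so its fall is given as a description.

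The rule named the 25 largest shared falls with a mean of at least 5 TPM, between -4.14 and -2.41, and 23 of them did not overlap between fractions, against 4.72% of all genes that were lower without overlap. They too were chosen for their size, and nothing is read from that count. Several, among them Fbln2, Dbn1 and Fgf21, lay near the floor in GFP-positive libraries and met the filter on the mean only through GFP-negative libraries. The size and p-value of such falls are given as a description. Spp1, osteopontin, was 16.1 to 152 TPM (median 34) in GFP-negative and 0.34 to 3.37 TPM (median 1.11) in GFP-positive libraries (-4.14, limma adjusted p 1.51e-07). Fbln2, the matrix protein fibulin 2, was 8.84 to 96.4 TPM (median 23.8) and 0 to 2.59 TPM (median 0.52) (-3.96, limma adjusted p 3.87e-08), and fibronectin, Fn1, was 28.9 to 103 TPM (median 47.6) and 0.62 to 12.6 TPM (median 4.30) (-3.29, limma adjusted p 2.12e-08). For all 3 genes every GFP-positive library lay below every GFP-negative library. Scx, scleraxis, a transcription factor of tendon, was 114 to 183 TPM (median 157) and 6.27 to 37.1 TPM (median 16.9) (limma adjusted p 3.85e-07), without overlap.

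Of 31 tested matricellular and basement membrane genes 20 fell and 0 rose (median -0.73, and by clone -0.50, -0.88, -1.18 and -0.21, against -0.06, -0.12, -0.16 and 0.09 over all genes). The share called lower was 64.5%, against 23.2% of all genes tested. The protease inhibitor Timp1 (-2.0, adjusted p 3.98e-08), the collagens Col4a1 (-1.58) and Col4a2 (-1.54), the laminins Lama3 (-1.64) and Lamb3 (-1.63) and the proteases Plau (-1.06) and Plat (-1.51) fell in all 8 pairs. Ccn2, a YAP-regulated matricellular protein, was 1834 to 4052 TPM (median 2863) and 948 to 3327 TPM (median 1607) and fell by 0.75 on the log2 scale, whereas its relative Ccn1, at 6435 to 14572 TPM (median 12770) and 8196 to 18084 TPM (median 12560), did not pass the test (limma adjusted p 0.448). Of the fibroblast and mesenchymal genes, 7 of 30 were expressed enough to be tested and 5 of these fell: Fn1, S100a4 (-1.58), Sparc (-1.58), Cdh2 (-0.69) and Tagln (-0.62). The defining fibroblast markers Pdgfra, Pdgfrb, Col1a1, Col1a2, Col3a1, Dcn and Lum were below 1 TPM in all 16 libraries. With clone means as replicates 3 of the 7 tested list members fell and 0 rose, and without clone C1 3 members were tested and 2 fell.

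Several membrane proteins were among the same 25 genes. Slc4a11, a membrane transporter of the SLC4 family, was 72.5 to 214 TPM (median 170.4) and 6.21 to 21.4 TPM (median 8.26) and changed by -3.43, -3.63, -4.31 and -3.66 in clones C1, C11, C43 and C50 (limma adjusted p 8.86e-10). Psca, a surface antigen of the Ly6 family, was 28.1 to 149 TPM (median 88.3) and 2.85 to 14.3 TPM (median 5.96) and fell by 3.43 on the log2 scale. Tnfrsf12a, the receptor of the cytokine TWEAK, was the most abundant of the 25: it was 578 to 996 TPM (median 764) and 68.8 to 155 TPM (median 98.7) and fell by 2.89 on the log2 scale (limma adjusted p 3.98e-08). Anxa3, a calcium-dependent lipid binding annexin, was 321 to 611 TPM (median 399) and 38 to 107 TPM (median 93.1). The fractions did not overlap for Slc4a11, Psca, Tnfrsf12a or Anxa3. Emp3 (-3.40), Cdh13 (-3.15), Mme (-2.73), Itga7 (-2.62), Mcam (-2.61) and Axl (-2.56) fell as well, Mcam and Axl with overlapping ranges, and so did the actin binder Dbn1 (-3.17), Basp1 (-3.01), the LIM protein Fhl2 (-2.71), the metalloprotease Bmp1 (-2.52), the hormone Fgf21 (-2.84), Lhfp (-3.20) and Ctla2b (-2.64). Among genes with a mean of at least 100 TPM, Cald1 (-2.03), Pdlim7 (-1.63) and Timp2 (-1.39) were also among the 10 largest falls, with the histone H2ac8 (-1.90), whose family shares reads, and with Cldn6, Birc5, Cenpa and Spc24 described below.

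**Figure D3:**
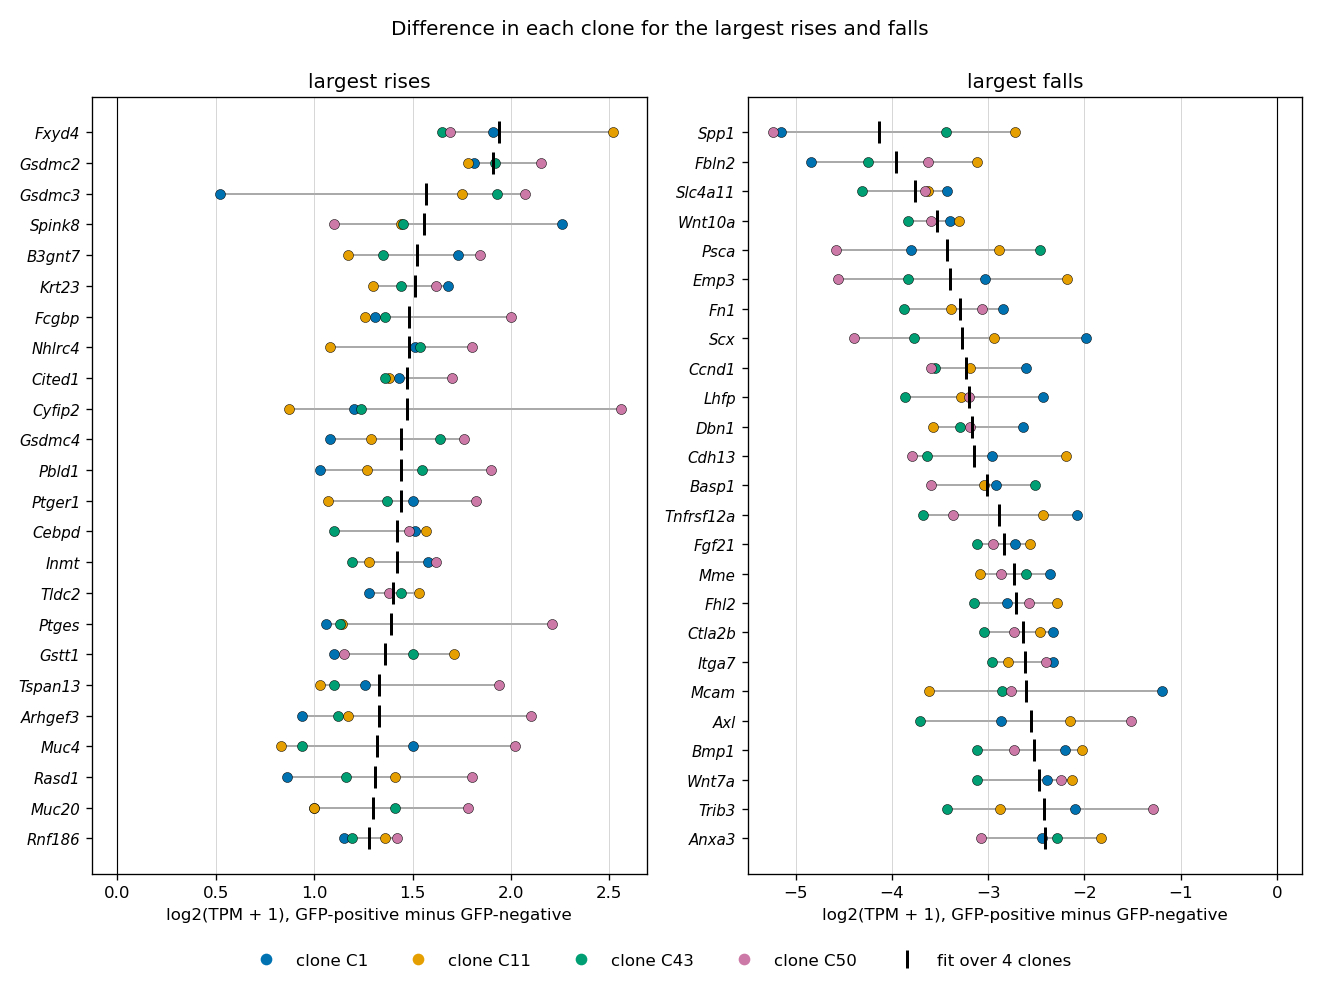
Difference between fractions (log2(TPM + 1), GFP-positive minus GFP-negative, horizontal axes) in each of the 4 clones (coloured points) for 24 of the 25 largest rises and for the 25 largest falls, with black ticks for the fit over all clones. Every point lies on the same side of 0 as its gene's tick; the widest spread among the rises is that of Cyfip2 (0.87 to 2.56), and Spp1 ranges from -5.24 to -2.72.

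Genes that mark injured tubules were lower in GFP-positive cells: of 20 tested 15 (75%) fell and 2 (10%) rose, against 23.2% and 12.1% of all genes (median -0.90). Beside Spp1, Tnfrsf12a, Sox4, Anxa3 and Timp1, the growth factor Pdgfb (-1.70), clusterin Clu (-1.05), S100a6 (-1.20), Lcn2 (-0.99), Cd44 (-0.82), Lgals3 (-0.62) and Cdkn1a (-0.51) fell in all 8 pairs. S100a6, a calcium-binding protein, was 2338 to 8531 TPM (median 4721) and 1652 to 2315 TPM (median 1953) with no overlap. The 2 that rose were Plaur (0.37, adjusted p 0.00012), the urokinase receptor, and Hbegf (0.28, adjusted p 0.000755), an EGF receptor ligand. Krt20 was 311 to 717 TPM (median 559.5) and 376 to 745 TPM (median 606) and did not pass the test.

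Of 32 tested epithelial junction genes 8 (25%) rose and 10 (31.2%) fell (median 0.03), against 12.1% and 23.2% of all genes, and after median-ratio scaling 11 rose and 8 fell. Without GFP-negative replicate 1 of C50 10 rose and 15 fell, with a median of -0.16. Cldn6, a tight junction claudin, was 520.2 to 721 TPM (median 640.4) in GFP-negative and 117 to 255 TPM (median 133) in GFP-positive libraries and fell by 1.99 on the log2 scale (limma adjusted p 2.12e-08). Cldn8, a claudin of the collecting duct, was 74 to 458 TPM (median 204) and 129.7 to 1002 TPM (median 418) and rose by 1.07 (limma adjusted p 1.56e-05). Cldn2, a pore-forming claudin, rose by 1.07 from a low level of 1.36 to 7.14 TPM (median 3.90). The adhesion protein Epcam was 551 to 844 TPM (median 707) and 382 to 503 TPM (median 406) and fell without overlap (-0.70), and Cldn7 (-0.39), Cldn23 (-0.56), Cldn3 (-0.30) and Cldn4 (-0.53) fell. E-cadherin, Cdh1, was 125 to 541 TPM (median 418) and 409 to 601 TPM (median 543), higher in all 8 pairs but not called (limma adjusted p 0.0739).

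Among keratins and genes of stratified or urothelial epithelium 9 of 20 (45%) rose and 3 (15%) fell, against 12.1% and 23.2% of all genes, and with clone means as replicates 5 rose and 2 fell. The uroplakin Upk1a was 198 to 548 TPM (median 430.5) and 472 to 1086 TPM (median 975) and rose by 1.15, Upk2 (1.00), Krt19 (0.70) and Krt23 (1.51) rose, and Sfn, the epithelial 14-3-3 protein, was 110.3 to 199 TPM (median 133) and 25.6 to 47.9 TPM (median 41.2) and fell without overlap. Krt8 and Krt18, the most abundant of these keratins, were called higher by 0.20 and 0.19, but after quantile normalization the differences were -0.04 and -0.30, so their direction depended on the scaling. Of 10 integrins 1 rose, Itga1 (0.87), and 3 fell, Itga5 (-0.82), Itgb6 (-0.59) and Itgb1 (-0.44), while without clone C1 1 rose and 0 fell. Of 39 actin and contractile genes 16 (41%) fell and 7 (17.9%) rose, and with clone means as replicates 12 and 2. Moesin, Msn, was 76.5 to 207 TPM (median 161) and 31 to 68.8 TPM (median 39.3) (limma adjusted p 4.81e-07), while its relative ezrin, Ezr, was 337 to 896 TPM (median 692) and 696 to 1026 TPM (median 833) and rose by 0.39. The tropomyosins Tpm1 (-0.57), Tpm2 (-2.05) and Tpm4 (-0.59), Flna (-0.86) and Cald1 (-2.03) fell, and the microvillus and membrane curvature genes Baiap2l2 (1.12), Eps8l1 (0.68) and Myo6 (0.71) rose.

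Of the Wnt pathway 5 of 22 tested (22.7%) rose and 7 (31.8%) fell, against 12.1% and 23.2% of all genes, and 7 rose and 7 fell with median-ratio scaling. There were 3 rises and 4 falls with clone means as replicates, as without clone C1. Its largest falls were in ligands: Wnt10a was 31.1 to 64.7 TPM (median 43.5) and 1.54 to 5.62 TPM (median 2.69) and Wnt7a 25.5 to 59.9 TPM (median 54.1) and 3.81 to 12.9 TPM (median 8.26), both without overlap (limma adjusted p 5.41e-10 and 2.65e-07), while Wnt4 rose by 0.55 and Wnt7b fell by 0.46 on the log2 scale. The receptors moved either way, with Fzd4 (0.84) and Lrp6 (0.69) higher and Fzd1 (-0.72) and Fzd2 (-0.64) lower. In the TGF-beta and BMP list 2 of 35 (5.71%) rose and 11 (31.4%) fell, or 4 and 19 without GFP-negative replicate 1 of C50. The ligand Tgfb1 (-0.93), its binding protein Ltbp1 (-1.55), and the inhibitors Smad7 (-1.87), Fst (-2.20) and Fstl3 (-2.03) fell, and Bmp7 (0.57) and Id3 (0.65) rose.

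Of 30 NF-kB genes 12 (40%) fell and 3 (10%) rose, against 23.2% and 12.1% of all genes. Relb, a subunit of the non-canonical pathway, was 15 to 31.5 TPM (median 19) and 3.56 to 8.43 TPM (median 5.25) and changed by -1.73, -1.58, -1.81 and -1.69 in the 4 clones, the fall of at least 1 with the least relative spread between clones (limma adjusted p 8.86e-10). The feedback inhibitor Tnfaip3 (-1.73) and the chemokines Cxcl16 (-0.56), Cxcl2 (-1.11), Cxcl10 (-1.25) and Ccl20 (-1.45) fell, and C3 (1.26), Csf3 (0.55) and Irf1 (0.53) rose. Of 30 EGF receptor and ERK feedback genes 9 (30%) fell and 4 (13.3%) rose, and with clone means as replicates 6 and 1: the ERK-induced factors Etv4 and Etv5 (-0.97) and the ligands Nrg1 (-0.88), Areg (-0.74) and Ereg (-0.72) fell, while Egfr, the receptor, was 28 to 54.2 TPM (median 49.2) and 51 to 80.3 TPM (median 70) and rose by 0.54, with the ligands Btc (1.04) and Hbegf. Of 27 YAP and TEAD targets 11 (40.7%) fell, among them Ankrd1 (-2.11), Axl, Ajuba (-0.98) and Ccn2, and 4 rose, among them F3 (0.72). In the Notch pathway 2 of 16 (12.5%) rose and 3 (18.8%) fell, with median-ratio scaling 4 rose and 2 fell, with clone means as replicates 1 and 1, and without GFP-negative replicate 1 of C50 2 and 5. The largest difference of the Notch list was in Lfng, a glycosyltransferase that modifies Notch, at 6.33 to 10.6 TPM (median 8.43) and 0.64 to 2.01 TPM (median 1.09).

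Genes of cell division were lower in GFP-positive cells. Of 58 G2 and M phase genes tested 52 (89.7%) fell, 43 of them in all 8 pairs, and 0 rose, with a median of -1.02. Of 45 S phase and replication genes 31 (68.9%) fell and 0 rose, with a median of -0.49, against 23.2% of all genes lower. With clone means as replicates 46 and 18 fell, with median-ratio scaling 51 and 25, and without GFP-negative replicate 1 of C50 54 and 34. Cdk1, the mitotic kinase, was 288 to 625 TPM (median 407) in GFP-negative and 148 to 249 TPM (median 179.8) in GFP-positive libraries. Its partner cyclins Ccnb1 and Ccnb2 were 44.5 to 93.3 TPM (median 54) and 14.4 to 35 TPM (median 23.3), and 48.4 to 94.6 TPM (median 71.5) and 15.5 to 51.8 TPM (median 18.5). Of these 3 genes Cdk1 and Ccnb1 did not overlap between fractions (limma adjusted p 5.5e-05, 5.5e-05 and 7.34e-06). Other falls without overlap were in the kinases Plk1 (-1.36), Aurka (-1.07) and Aurkb (-1.45), the anaphase activator Cdc20 (-1.02), the centromere protein Cenpa (-1.56), survivin Birc5 (-1.60) and the kinetochore subunit Spc24 (-1.45). Mki67, the usual marker of cycling cells, was 8.67 to 14.2 TPM (median 11.2) and 3.33 to 11 TPM (median 4.64) and fell by 0.96 on the log2 scale with overlapping ranges. 

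The size of this difference varied with the clone. Taking clones C1, C11, C43 and C50 in turn, the median over the 58 mitotic genes was -0.43, -1.01, -1.34 and -1.46, and over the 45 S phase genes -0.02, -0.43, -0.69 and -0.74. A fraction by clone interaction was called for 11 of the 58 and 7 of the 45, against 0.869% of all genes. Over all genes the interaction count of 114 was 13 without clone C1 and 11 in a fit with a replicate block. In the same order Birc5 changed by -0.67, -1.41, -1.81 and -2.50 (interaction adjusted p 0.0017, limma), and Gmnn, the replication licensing inhibitor geminin, by -0.29, -0.86, -1.15 and -1.68 (interaction adjusted p 0.00248, limma). Without clone C1 neither interaction passed the limma test (adjusted p 0.223 and 0.246). On the log2 scale the difference in Aqp2 was largest in C1, where its mean was lowest in both fractions (69.5 and 2017 TPM). In TPM the gap was smallest in C1 and largest in C43 (means of 1624 and 6952 TPM). With 4 clones this is given as a description.

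Cyclin D1, Ccnd1, which drives entry into the cycle, was 10.9 to 24.4 TPM (median 20.4) in GFP-negative and 0.64 to 2.55 TPM (median 0.92) in GFP-positive libraries and fell by 3.23 on the log2 scale (standard error 0.152, limma adjusted p 3.53e-09). All 8 GFP-positive libraries were below all 8 GFP-negative libraries, and the difference was -2.61, -3.19, -3.55 and -3.59 in the 4 clones, so it exceeded 2 in size in every clone, C1 included. Its partner kinase Cdk4 fell by 0.54 on the log2 scale. The transcription factor Mycn fell by 1.66 on the log2 scale. Of 24 G1 cyclins, kinases and inhibitors 12 (50%) fell and 2 (8.33%) rose, against 23.2% and 12.1% of all genes, and with clone means as replicates 5 and 1. Those that rose were Rb1 (0.42) and Rbl2, which was 6.42 to 20.3 TPM (median 16.5) and 20.9 to 31 TPM (median 26.6) without overlap (limma adjusted p 0.00281), both repressors of cell cycle genes. The inhibitor Cdkn1a, p21, fell by 0.51 on the log2 scale together with the division genes.

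**Figure D4:**
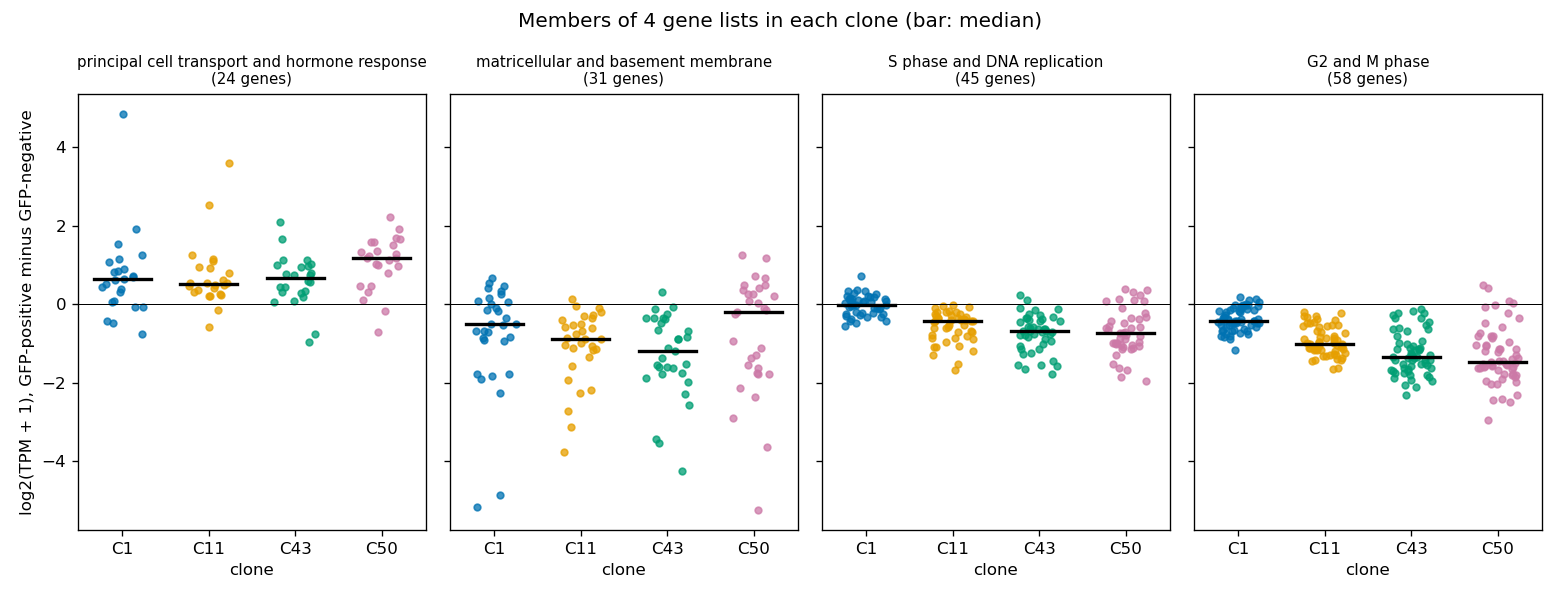
Difference between fractions (log2(TPM + 1), GFP-positive minus GFP-negative, vertical axis) of each member of 4 gene lists in clones C1, C11, C43 and C50, with black bars for the medians. The principal cell medians lie between 0.53 and 1.17, and the mitotic medians between -0.43 in C1 and -1.46 in C50. Over all genes tested the clone medians lie between -0.16 in C43 and 0.09 in C50. The highest principal cell points in C1 and C11 are Aqp2 (4.84 and 3.59).

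The promoters of 3 mitotic genes are shown because members of that list moved together. Each line holds the 250 bases before the start from RefSeq (GRCm38.p6), read 5′ to 3′ on the gene's strand: Ccnb1 chr13:100786487-100786736, Ccnb2 chr9:70421555-70421804 and Cdc20 chr4:118437344-118437593, all 3 genes on the minus strand. Capitals mark CCAAT, the box bound by the factor NF-Y, and TTTGAA, the cell cycle homology region bound by the DREAM complex, searched on both strands (as ATTGG and TTCAAA on the opposite strand). CCAAT matches begin 99 and 67 bases before the start in Ccnb1, 87, 54 and 21 in Ccnb2, and 53 and 8 in Cdc20. TTTGAA matches begin 167 bases before the start in Ccnb2 and 18 in Cdc20.
Ccnb1 promoter: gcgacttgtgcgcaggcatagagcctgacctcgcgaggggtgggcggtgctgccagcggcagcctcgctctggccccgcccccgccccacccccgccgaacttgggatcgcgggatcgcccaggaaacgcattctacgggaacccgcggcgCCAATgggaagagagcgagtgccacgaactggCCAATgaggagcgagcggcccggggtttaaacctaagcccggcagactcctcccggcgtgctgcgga
Ccnb2 promoter: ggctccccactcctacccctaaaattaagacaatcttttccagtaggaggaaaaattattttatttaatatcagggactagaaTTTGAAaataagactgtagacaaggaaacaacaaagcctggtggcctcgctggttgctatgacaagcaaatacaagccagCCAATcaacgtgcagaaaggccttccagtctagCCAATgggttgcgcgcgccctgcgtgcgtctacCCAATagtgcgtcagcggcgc
Cdc20 promoter: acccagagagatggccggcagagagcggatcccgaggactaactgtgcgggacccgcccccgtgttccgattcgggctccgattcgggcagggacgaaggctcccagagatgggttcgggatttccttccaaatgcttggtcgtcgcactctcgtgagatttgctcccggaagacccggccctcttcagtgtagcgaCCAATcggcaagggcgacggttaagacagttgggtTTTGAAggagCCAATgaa

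A RefSeq window was found for 51 of the 58 mitotic genes (87.9%). Of these genes 39 (76.5%) have CCAAT and 20 (39.2%) have TTTGAA in at least 1 window. Over all 32851 windows of the table, each counted singly, the shares are 33.8% and 16%. The first shares count genes and the second count windows, and the table also holds genes not tested here. Nothing is therefore read from their difference. A comparison with the genes tested here is void, since only 72% of them had a window. The match is a description of letters, and no binding was measured.

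The counts of several metabolic and stress lists depended on the scaling. In the unfolded protein and integrated stress response list 13 of 36 (36.1%) fell and 6 (16.7%) rose, against 23.2% and 12.1% of all genes, or 9 and 8 with median-ratio scaling and 8 and 1 with clone means as replicates. The largest falls of the list were these: Trib3, a pseudokinase, was 46.5 to 212 TPM (median 144) and 14.1 to 30.4 TPM (median 21.6), Phgdh, which starts serine synthesis, was 648 to 759 TPM (median 675) and 236 to 421 TPM (median 306), and Shmt2 was 241 to 522 TPM (median 366) and 149 to 190.2 TPM (median 166). Trib3, Phgdh and Shmt2 did not overlap between fractions (limma adjusted p 3.58e-06, 9.16e-08 and 3.94e-06), and Mthfd2 (-1.05), Slc7a5 (-0.96) and Asns (-0.81) fell too. Among the genes of endoplasmic reticulum stress and folding Xbp1 (0.55), Dnajb9 (0.45), Hspa5 (0.42), Herpud1 (0.35) and Canx (0.31) rose, and Sdf2l1 (-0.29), Pdia6 (-0.25), Dnajb11 (-0.18) and Creld2 (-0.13) fell. The call of Creld2 was lost in 21 of 30 alternatives, and those of Sdf2l1, Dnajb11 and Creld2 with both rescalings and with clone means as replicates. Of 26 cholesterol synthesis genes 13 (50%) fell and 1 (3.85%) rose (median -0.29), with Cyp51 (-0.63), Mvd (-0.77) and Fdps (-0.62) among the falls. The rise, that of the transport gene Stard4 (0.30), lost its call in 19 of 30 alternatives, and with clone means as replicates 8 fell and 0 rose. Of 15 heat shock genes 9 (60%) fell and 2 (13.3%) rose: Hspb1 was 38.9 to 112 TPM (median 69.7) and 15.5 to 33.6 TPM (median 25.9) and fell without overlap, and Dnajb1 rose by 0.77.

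Glycolysis and hypoxia genes fell in 12 of 33 (36.4%) and rose in 4 (12.1%), against 23.2% and 12.1% of all genes, among them Eno1 (-0.74), Pgk1 (-0.50) and Gapdh (-0.47) lower and Ndrg1 (0.91) higher. With median-ratio scaling 9 fell and 7 rose, and with clone means as replicates 6 and 2. Of 45 proteasome genes 26 (57.8%) fell and 1 rose as deposited (median -0.23), and 13 fell with median-ratio scaling and 11 with clone means as replicates. Of 81 nuclear genes of oxidative phosphorylation 23 (28.4%) fell, a share near that of all genes, and 0 rose, while 3 fell with median-ratio scaling, 3 with clone means as replicates and 29 after quantile normalization. Without GFP-negative replicate 1 of C50 32 fell and 3 rose. Of 83 cytosolic ribosomal protein genes 8 (9.64%) fell and 1 (1.2%) rose, shares below those of all genes, against 1 and 1 with median-ratio scaling, 15 and 2 after quantile normalization, 3 and 0 with clone means as replicates, and 11 and 7 without GFP-negative replicate 1 of C50. In the redox list 10 of 29 (34.5%) rose and 3 (10.3%) fell, or 5 and 0 with clone means as replicates, with Nqo1, a target of the factor NRF2, at 42.3 to 111 TPM (median 64.8) and 92.5 to 169.7 TPM (median 122) (limma adjusted p 2.25e-07) and Gsta4 (0.85) and Gstm1 (0.68) higher. Of 38 interferon-stimulated genes 13 (34.2%) rose, among them Ifit1 (0.69) and Isg20 (0.74), and 4 (10.5%) fell, among them the antigen presentation genes H2-K1 (-0.79) and B2m (-0.58). With clone means as replicates 5 rose and 3 fell. H2-K1 shares reads with near copies of its family, so its value is uncertain.

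**Figure D5:**
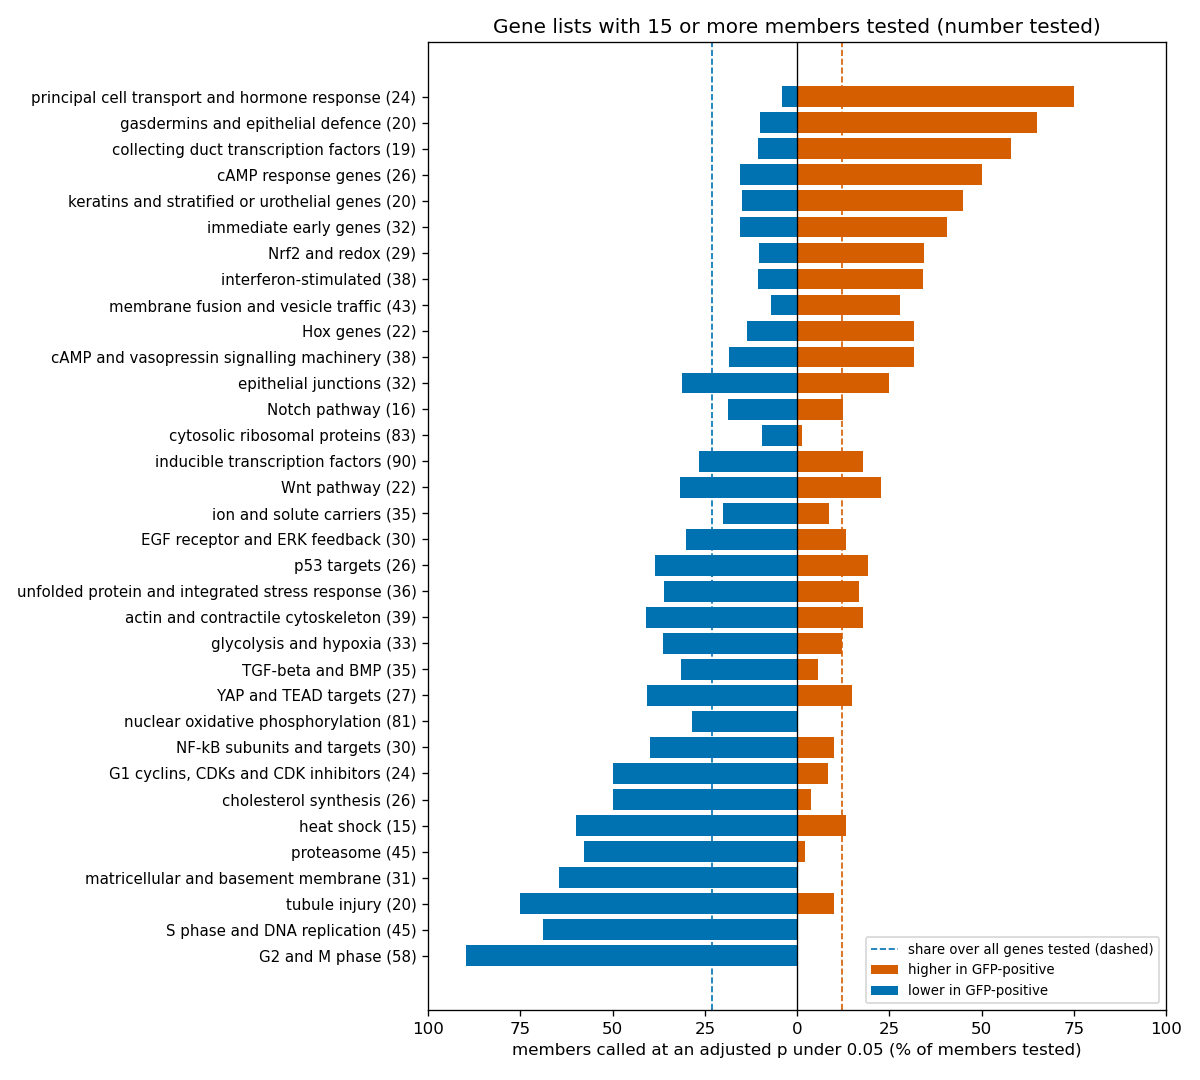
Share of the tested members of each gene list that were called higher (orange, to the right) or lower (blue, to the left) in GFP-positive cells (horizontal axis, percent), for lists with at least 15 members tested (numbers in parentheses). Dashed lines mark the shares over all 13113 genes, 12.1% higher and 23.2% lower; the principal cell list reaches 75% higher and the G2 and M phase list 89.7% lower.

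A fraction by clone interaction was found for 114 of 13113 genes (0.869%), 1691 at an unadjusted p under 0.05, and 71 of the 3009 shared genes were among them. This count was unstable: it was 5038 without GFP-negative replicate 2 of C50, 328 without GFP-negative replicate 1 of C50, 42 without GFP-positive replicate 1 of C1, and between 47 and 75 without each of 10 others, namely the other 3 libraries of C1, all 4 of C11, GFP-negative replicate 1 of C43 and both GFP-positive replicates of C50. Without clone C1 it was 13 and without C11 39. Beside Aqp2, the smallest adjusted p values with a mean of at least 5 TPM included those of Tnfrsf12a, which by clone (C1, C11, C43, C50) changed by -2.08, -2.43, -3.68 and -3.37 (limma adjusted p 0.000754), and Spp1 (-5.15, -2.72, -3.44 and -5.24, limma adjusted p 0.000785). Tnfrsf12a fell least in C1, Spp1 least in C11. Spc24, Birc5 and Gmnn were among them too. So were 3 short RNAs, Mir130c, mt-Tl1 and Mir5135, but these are listed at 0 in most libraries and passed the filter on the mean only through the groups where they are above 0, so their tests are void.

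Other falls were nearly the same size in every clone. Of the 8 falls of at least 1 that varied least, Nox4, a hydrogen peroxide-producing oxidase of the kidney, changed by -1.54, -1.32, -1.42 and -1.37 in the 4 clones. Its level was 7.03 to 18.4 TPM (median 11.9) in GFP-negative and 2.66 to 4.45 TPM (median 3.83) in GFP-positive libraries. Fstl3, a binding protein of activin, changed by -2.16, -2.15, -2.06 and -1.76, and Lrp1, an endocytic receptor, by -1.01, -1.28, -1.13 and -1.24. Relb, Wnt10a, Fgf21, Irx2 and Slc4a11, given above, complete this group, and none of the 8 overlapped between fractions, against 4.72% of all genes that were lower without overlap. The rule asked for a large and even fall, so nothing is read from that count, and of the 8 rises chosen the same way 0 were without overlap.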

How the data were processed

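The 16 RNA-seq libraries were 8 GFP-negative and 8 GFP-positive fractions of clones C1, C11, C43 and C50, with 2 libraries per clone and fraction. RNA was converted to cDNA with the SMART-Seq HT kit and libraries were made with Nextera XT and sequenced in pairs of reads, per the labels' protocols. The authors' deposited values are TPM, and STAR and RSEM are named per the submitters' processing notes. Their versions, the genome build and the annotation are not given in the sources used here. The protocol amplifies cDNA and has no step that is stated to mark strand, so reads of overlapping antisense genes cannot be told apart. TPM hold no depth, so no counting interval is given. The table had 55415 lines, and 980 lines that shared 79 symbols were summed, which left 54514 entries.

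Genes with a mean of at least 1 TPM over the 16 libraries (13113) were fitted on log2(TPM + 1) with limma 3.58.1 in R 4.3.3 (moderated variance with a mean trend), with fraction and clone as terms, and again with their interaction. P-values were adjusted by Benjamini-Hochberg over all genes tested, with a threshold of 0.05. The code was tested on simulated data. A change counts as shared when it is called and has one sign in all 8 pairs. The text names GFP and Aqp2, the 25 largest shared rises and falls with a mean of at least 5 TPM, the 10 largest each way at 100 TPM or more, the 8 each way of size 1 or more that varied least between clones, the 10 smallest interaction p-values, and members of 41 gene lists. Genes with provisional symbols were passed over, and some genes that met the rule are not reported here. The comparison, its members and the lists were chosen with earlier results of these data known. Genes singled out within a list were chosen after their values were seen.

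Replicate numbers did not pair the libraries: deviations of same-numbered libraries correlated at 0.0544, 0.0151, 0.203 and 0.0825 in the 4 clones, so the fit had no replicate block. Alternatives changed the pseudocount, the filter, the scaling, the moderation and the covariates, used clone means, and left out each library and each clone. Promoter windows came from RefSeq (GRCm38.p6), matched by symbol, Ensembl ID or synonym for 9443 of the 13113 genes. The 6 unsorted wild-type libraries were not used.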

Additional observations from a re-analysis of the deposited data

Results flagged for a closer look

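Single libraries stood far from the rest of their fraction in 7 of 158 groups of 8 libraries examined, where chance alone flags about 1 in 20. In GFP-negative libraries these were the ribosomal protein share of 8.56% in replicate 1 of C50 and single values of Cyfip2 (8.53 TPM), Wnt7a (25.51 TPM), the histone H2ac8 (616.02 TPM) and the short RNAs mt-Tl1 (146.21 TPM) and Mir5135 (120.59 TPM). In GFP-positive libraries it was a value of 5.08 TPM for Emp3.

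The difference between fractions varied between clones, by limma's interaction test, for several of the genes named. The adjusted p was 2.15e-06 for Aqp2, 0.000785 for Spp1, 0.000754 for Tnfrsf12a, 0.0017 for Birc5, 0.0017 for Spc24, 0.00248 for Gmnn, 0.00755 for Psca and 0.00906 for Anxa3. It was 0.0124 for Cenpa, 0.0141 for Scx, 0.0205 for Cald1, 0.0302 for Cldn6, 0.0458 for Basp1 and 0.0496 for Trib3. For 3 short RNAs, each at 0 in at least 12 of 16 libraries, the test is void, since they passed the filter on the mean only through the groups where they are above 0. Its adjusted p was 0.000521 for Mir130c, 0.000754 for mt-Tl1 and 0.00243 for Mir5135, and nothing is read from it. Over 29 alternatives Aqp2 and Spp1 passed in 29, while Cald1 passed in 14, Cldn6 in 13, and Basp1 and Trib3 in 8. H2ac8 fell by 1.90 on the log2 scale and shares reads with other histone genes.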

How the results depend on the processing

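Over 30 alternatives the number of genes called between fractions stayed within 1.5 times of 4626, except with clone means as replicates (2406, 778 higher and 1628 lower). The shared count, over the 7 pairs then left, ranged from 2927 to 4281 when single libraries were left out, and the count of calls from 4170 to 6043. Over all 8 pairs the shared count was 2964 with median-ratio scaling (1552 higher, 1412 lower, 2195 of them among the 3009). It was 3199 after quantile normalization (1652 higher, 1547 lower, 2300 of them among the 3009). With clone means the number of called list members was 351 (107 higher, 244 lower), and leaving out single libraries gave 518 to 687. The interaction count of 114 was 234 after quantile normalization, 180 with detected genes as covariate, 13 without clone C1 and 39 without clone C11, and it ranged from 42 to 5038 when single libraries were left out (lowest without GFP-positive replicate 1 of C1, highest without GFP-negative replicate 2 of C50). The cause was not tested. In a fit with a replicate block the interaction count was 11, 4259 genes were called (1420 higher, 2839 lower), 4169 of them among the 4626, and 2961 were shared. Whether the numbers pair the libraries is not known. Krt18 and Krt8 reversed after quantile normalization (-0.30 and -0.04, limma adjusted p 0.0127 and 0.683). Of 2218 values of 74 named genes, 2215 kept direction and call and 3, all of Mir130c, lost the call. Most of these genes were chosen for large or even called changes in these same libraries, so nothing is read from that count. The Aqp2 difference was 2.94 to 3.23 without single libraries. Of 16822 values of 563 called list members, 1364 lost the call. Beside those given above, Rab11fip2 did so in 15 of 30 alternatives, Emx2 in 13, Cldn4, Tagln and Grhl1 in 12, Jun and Arc in 10, Prss8 in 9 and Canx in 8. Krt18 lost its call or reversed in 14.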

Other observations

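Vesicle traffic is the process that carries aquaporin-2 to the apical membrane. Of 43 tested genes of membrane fusion and vesicle traffic 12 (27.9%) rose and 3 (6.98%) fell, against 12.1% and 23.2% of all genes, with a median of 0.08. With clone means as replicates 6 rose and 2 fell. Rab17, a small GTPase of polarised epithelia, was 57.4 to 94 TPM (median 75.9) in GFP-negative and 114 to 175 TPM (median 163) in GFP-positive libraries, without overlap (1.01, limma adjusted p 2.57e-07). The recycling endosome genes Rab11a (0.35), Rab25 (0.25), Rab11fip1 (0.77) and Myo5b (0.61) and the vesicle protein Vamp2 (0.63) rose. The syntaxin Stx3 was 36.6 to 56.3 TPM (median 50) and 24.1 to 31.9 TPM (median 27.4) and fell without overlap (-0.79, limma adjusted p 8.54e-06), and Rab11fip5 (-0.68) and Rab11fip2 (-0.44) fell.

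Of 35 ion and solute carriers 3 (8.57%) rose and 7 (20%) fell, shares near the 12.1% and 23.2% of all genes, but 13 rose and 7 fell after median-ratio scaling. Beside Slc4a11, the chloride channel Ano1 was 14.5 to 73.4 TPM (median 39.9) and 7.80 to 18.5 TPM (median 8.54) (-1.86, limma adjusted p 9.56e-06), and the potassium chloride cotransporter Slc12a4 (-1.81), the glutamine carrier Slc38a1 (-1.33) and the bicarbonate carrier Slc4a4 (-1.15) fell. Of 26 p53 targets 10 (38.5%) fell and 5 (19.2%) rose, against 23.2% and 12.1% of all genes, or 9 and 8 after median-ratio scaling. Gadd45a was 117 to 167 TPM (median 143) and 23.7 to 59 TPM (median 29.3) without overlap (-2.10, limma adjusted p 1.17e-07), while its relative Gadd45g (0.63) rose, and Trp53 itself fell by 0.49 on the log2 scale. Of 22 Hox genes 7 (31.8%) rose and 3 (13.6%) fell, with no difference above 0.5 among those called, and with clone means as replicates 1 rose and 1 fell.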
